A study of Mus musculus with 2 samples.

Results

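Mir451a, Mir144, Mir486 and Mir3107 are the microRNA genes of 2 loci known for their activity in red blood cell precursors. They were picked by gene name, and all 4 were found among the 2202 microRNA genes of the deposited tables. The tables come from microRNA sequencing of heart tissue from female mice of the F1 hybrid strain B6CASTF1/J at an age of 14 days, with RNA of under 30 bases in the libraries. The study held a single group, 2 biological replicates without treatment, so each comparison is between these 2 libraries and not between conditions. A label of replicate 1 names 3 females and a label of replicate 2 names 1 female, and whether the first was a pool is not stated. Both replicates carry the same donor label, and 1 description writes months in place of days for the age. Sense reads of microRNA genes numbered 5237062 in replicate 1 and 3026501 in replicate 2, and a level is a gene's sense count per 1000000 of them (CPM).

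MicroRNAs are short RNAs that guide Argonaute proteins to messenger RNAs, mainly through the seed at bases 2 to 8. Mir144 and Mir451a are made from a common primary transcript that the erythroid factor GATA1 activates, and miR-451a accumulates as red cells mature. miR-451a is unusual in its making: its short hairpin is cut by Argonaute 2 itself and not by Dicer. miR-144 is made by Dicer in the usual way. Mir486 lies in the gene of erythroid ankyrin, Ank1, a membrane skeleton protein, and is known from both red cells and striated muscle. Mir3107, also called Mir486b, lies on the other strand of the same stretch.

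The hairpins of the Mir144 and Mir451a locus are shown because the position of the mature sequence in them differs. Sequences are from RefSeq on GRCm38.p6, with the mature microRNAs in capitals. Mir144 is at chr11:78073005-78073070 and Mir451a at chr11:78073170-78073241, both on the plus strand.
Mir144: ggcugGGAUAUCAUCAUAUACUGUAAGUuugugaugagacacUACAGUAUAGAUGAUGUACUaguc
Mir451a: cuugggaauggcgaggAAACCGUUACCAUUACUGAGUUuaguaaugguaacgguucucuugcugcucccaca

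In the minimum free energy structure of the Mir451a hairpin, with 30 base pairs, the mature sequence ran from base 17 to base 38 and took in all 4 bases of the terminal loop. In the Mir144 hairpin, with 27 base pairs, miR-144-5p at bases 6 to 28 and miR-144-3p at bases 43 to 62 left the 6-base loop uncovered. Among 938 RefSeq mouse hairpins with a single predicted terminal loop, a mature sequence covered the whole loop in 2, Mir451a and Mir468. Mir468 was chosen for naming after its structure was seen.

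The mature sequences are shown with their seeds in capitals.
miR-451a: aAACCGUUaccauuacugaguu
miR-144-5p: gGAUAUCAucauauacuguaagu
miR-144-3p: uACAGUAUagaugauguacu

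None of these 3 seeds was shared with another mature microRNA of the RefSeq table, so each mature sequence forms a seed group of its own. miR-451a has 22 bases, miR-144-5p has 23 and miR-144-3p has 20. The deposited counts are per gene, so reads of the 5-prime and 3-prime arms of Mir144 cannot be separated.

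The 2 loci differ in how their genes overlap. On mm10, Mir144 (ENSMUSG00000065401.1) and Mir451a (ENSMUSG00000070065.1) are 99 bases apart and lie in no annotated host gene. The nearest other gene is Eral1, a mitochondrial ribosome assembly factor, on the minus strand with 134 bases between it and Mir451a. Mir451b (ENSMUSG00000104813.1) covers the same 72 bases as Mir451a on the minus strand. Mir486 (ENSMUSG00000070084.3, chromosome 8, 23142555 to 23142682, plus strand) and Mir3107 (ENSMUSG00000106471.1, 23142573 to 23142662, minus strand) overlap by 90 bases. Both lie inside Ank1 on the plus strand and inside the antisense gene Gm15816 on the minus strand, in introns of each.

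**Figure D1:**
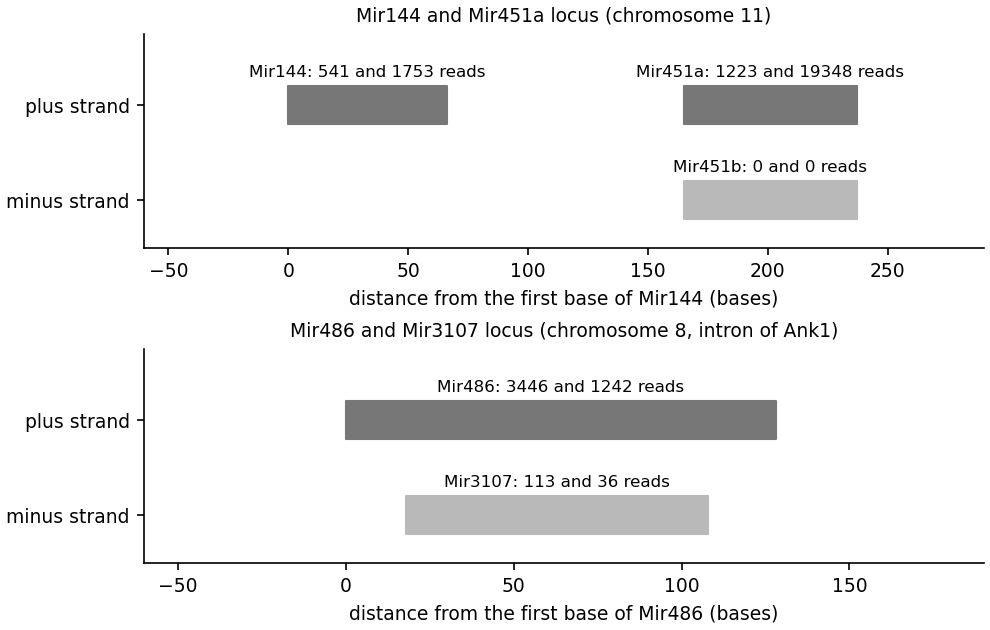
Positions of the microRNA genes of both loci by strand, as distance in bases from the first base of Mir144 (top) and of Mir486 (bottom), with the own-strand reads of replicate 1 and replicate 2. Mir451b and Mir451a cover the same bases, with 0 reads for Mir451b in both libraries, and Mir3107 lies within Mir486.

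Strand separated the genes at both loci. Mir451a had 1223 reads in replicate 1 and 19348 in replicate 2 on its own strand and 0 on the other strand in both. Mir451b, its antisense gene, had 0 reads in both libraries, for which the floor of 3 reads is 0.573 CPM in replicate 1 against 0.991 CPM in replicate 2. The longest stretch of miR-451a that also occurs in the Mir451b hairpin is 16 bases long, in capitals here.
miR-451a against Mir451b: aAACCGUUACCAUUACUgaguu

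Mir486 had 3446 and 1242 reads, and the gene on its other strand, Mir3107, had 113 and 36. Of the reads of that locus, Mir486 thus held 96.8% in replicate 1 and 97.2% in replicate 2. These counts are uncertain, because the hairpins of Mir486 and Mir3107 share 2 stretches of 22 bases, about the length of a microRNA, and no stretch of 24. The tables assign no gene to a read with several mapping places, so a read lying wholly within a shared stretch would be missing from both genes. Neither Mir451a nor Mir144 shares a stretch of 20 bases with another microRNA hairpin.

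Mir451a was the highest of the 4 genes in replicate 2 and stood below Mir486 in replicate 1. It reached 234 CPM in replicate 1 (exact 95% Clopper-Pearson interval 221 to 247) and 6393 CPM in replicate 2 (6303 to 6483). It ranked 114th of all genes in replicate 1 and 22nd in replicate 2. The mean of 3313 ± 4355 CPM (SD, n = 2) therefore describes neither library.

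Mir144 moved the same way. It stood at 103 CPM in replicate 1 (94.8 to 112) and at 579 CPM in replicate 2 (552 to 607), with a mean of 341 ± 337 CPM (SD, n = 2). Its rank went from 163 to 88.

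Mir486 was higher in the other library. It stood at 658 CPM in replicate 1 (636 to 680) and at 410.4 CPM in replicate 2 (388 to 434), with a mean of 534 ± 175 CPM (SD, n = 2). Its rank was 82 in replicate 1 and 97 in replicate 2. Reads wholly within a stretch shared with Mir3107 would be missing here, so comparisons with other genes cover the counted reads of Mir486 only.

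Mir3107 was the lowest of the 4 genes in both libraries, at 21.6 CPM (17.8 to 25.9) and 11.9 CPM (8.33 to 16.5), or 16.7 ± 6.85 CPM (SD, n = 2). Counts are per gene and microRNAs are of nearly equal length, so these levels need no length correction, but differences in ligation and mapping between microRNAs enter every comparison between genes. Intervals cover counting error only and treat each read as independent. Without molecular identifiers a read is not an independent molecule, so the intervals may be too narrow.

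**Figure D2:**
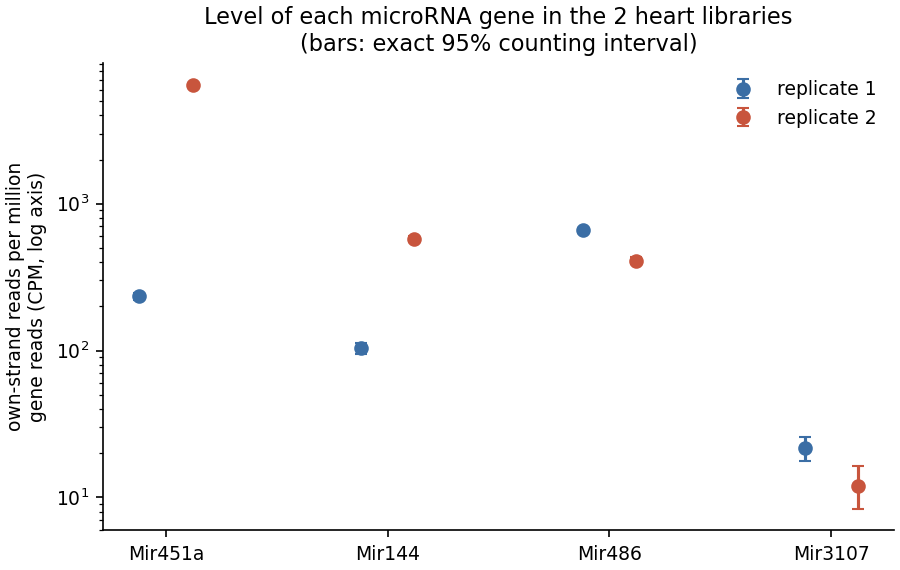
Own-strand level (CPM, log axis) of the 4 genes in replicate 1 and replicate 2, as points with exact 95% counting intervals. Mir451a at 234 and 6393 CPM and Mir144 at 103 and 579 CPM are higher in replicate 2, and Mir486 and Mir3107 are higher in replicate 1.

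By mean level the order was Mir451a, Mir486, Mir144 and Mir3107, at ranks 37, 92, 102 and 246 of all genes. The ranges of Mir451a, Mir486 and Mir144 over the 2 libraries overlapped each other, so their order is not separated from the spread between libraries, while Mir3107 stood below the other 3 in both. Each gene also overlapped its neighbours in the order of all genes. These were Mir107 above and Mir320 below Mir451a, Mir872 and Mir150 around Mir486, Mir330 and Mir200c around Mir144, and Mir3057 and Mir679 around Mir3107. Of these, Mir107 shares 20 bases with Mir103-1 and Mir103-2.

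The 2 loci together took 0.102% of the counted reads of replicate 1 (0.0989 to 0.104) and 0.739% of those of replicate 2 (0.730 to 0.749). The Mir144 and Mir451a locus accounted for 0.0337% and 0.697%, and the Mir486 and Mir3107 locus for 0.0680% and 0.0422%. Of the reads of all 4 genes, Mir486 held 64.7% in replicate 1 and 5.55% in replicate 2, whereas Mir451a held 23.0% and 86.5%. These shares are of counted reads. Reads wholly within a stretch shared by Mir486 and Mir3107 would be missing, so the part of that locus may be larger.

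The difference between libraries was tested for every gene by an exact two-sided binomial test on TMM-scaled library sizes with Benjamini-Hochberg adjustment at 0.05. Calls were made for 238 of 430 genes (55.3%), of which 120 were higher (27.9%) and 118 lower (27.4%) in replicate 1. All 4 genes of the 2 loci were called, 2 lower and 2 higher in replicate 1. Among genes with at least 100 reads in sum, as these 4 have, 204 of 263 were called. With such a background the calls alone say little and the sizes carry the comparison. The test rests on counting error, and it compares these 2 libraries only. Whether fewer cells of a type or less RNA per cell lies behind a level cannot be told apart in bulk tissue.

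Mir451a was 30.0-fold lower in replicate 1 (log2 difference -4.91, counting interval -4.99 to -4.83, −log10 adjusted p 7154 by the exact binomial test). It ranked 1st by size of difference among the 226 genes averaging 100 reads or more. Across those genes the median difference was 1.32-fold, and 41 differed by more than 2-fold.

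Mir144 was 6.15-fold lower in replicate 1 (log2 difference -2.62, -2.76 to -2.48, −log10 adjusted p 366 by the exact binomial test) and ranked 5th of the 226. Mir486 was 1.46-fold higher in replicate 1 (log2 difference 0.55, 0.45 to 0.64, adjusted p 3.56e-31 by the exact binomial test) and ranked 87th. Mir3107, too low to be ranked, was 1.64-fold higher (log2 difference 0.71, 0.17 to 1.31, adjusted p 0.0172 by the exact binomial test). In counted reads, the direction was thus the same for both genes within a locus and opposite between the loci. Reads wholly within a stretch shared by Mir486 and Mir3107 would be missing from both genes. Their differences therefore cover the counted reads only.

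Against the spread between the libraries over all genes, Mir451a was the only one of the 4 genes still called. The common biological coefficient of variation that edgeR estimated over all tested genes was 0.429. At that value edgeR's exact test called 3 of 430 genes (0.698%), which were Mir451a with an adjusted p of 0.00133, Mir185 with 0.0336 and Mir26a-2 with 0.0282. Mir144 had an adjusted p of 0.318 and Mir486 and Mir3107 had 1 by the same edgeR test. At a coefficient of 0.4 edgeR's exact test called 5 genes (1.16%), Mir451a among them and the other 3 genes of the loci not. At 0.1, below the estimate, it called 123 genes (28.6%), among them Mir451a, Mir144 and Mir486 but not Mir3107 (adjusted p 0.102 by edgeR's exact test). The estimate was made from the same 2 libraries.

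**Figure D3:**
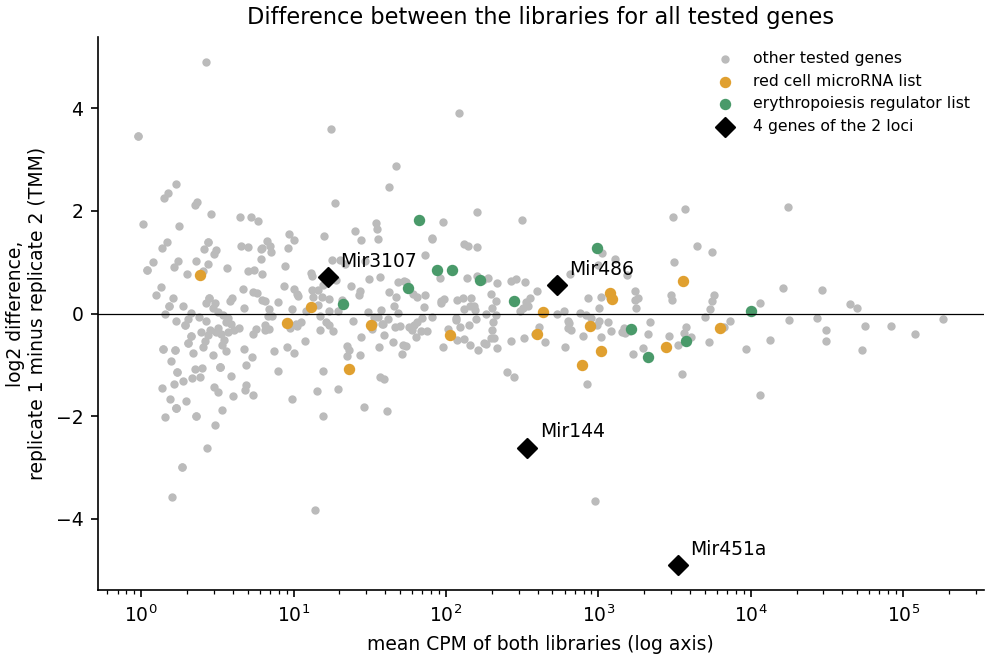
Log2 difference between replicate 1 and replicate 2 after TMM scaling against mean CPM (log axis) for the 430 tested genes. The 4 genes of both loci are diamonds. In colour are a list of other red cell microRNAs and a list linked to the control of red cell formation. Mir451a lies lowest at -4.91 and Mir144 at -2.62, while Mir486 and Mir3107 lie above 0 among the other genes.

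Library size cancels from ratios within a library, which were taken for 4 pairs of the genes. There were 2.26 reads of Mir451a for each read of Mir144 in replicate 1 (counting interval 2.04 to 2.51) and 11.0 in replicate 2 (10.5 to 11.6). The ratio of these partners from a common transcript thus differed 4.88-fold between libraries (exact conditional interval 4.35 to 5.47). In contrast, there were 30.5 reads of Mir486 per read of Mir3107 in replicate 1 (25.3 to 37.1) and 34.5 in replicate 2 (24.8 to 49.5). That ratio differed 1.13-fold, with an interval of 0.766 to 1.71 that includes equality, so a difference was not detectable at this depth.

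Between the loci, Mir451a had 0.355 reads per read of Mir486 in replicate 1 and 15.6 in replicate 2, a 43.9-fold difference (40.2 to 47.9). Mir144 had 0.157 and 1.41 reads per read of Mir486, a difference of 8.99-fold (7.99 to 10.1). In counted reads, Mir451a therefore passed from below to above Mir486 between the libraries, and so did Mir144. Mir486 reads wholly within a stretch shared with Mir3107 would be missing from these ratios.

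**Figure D4:**
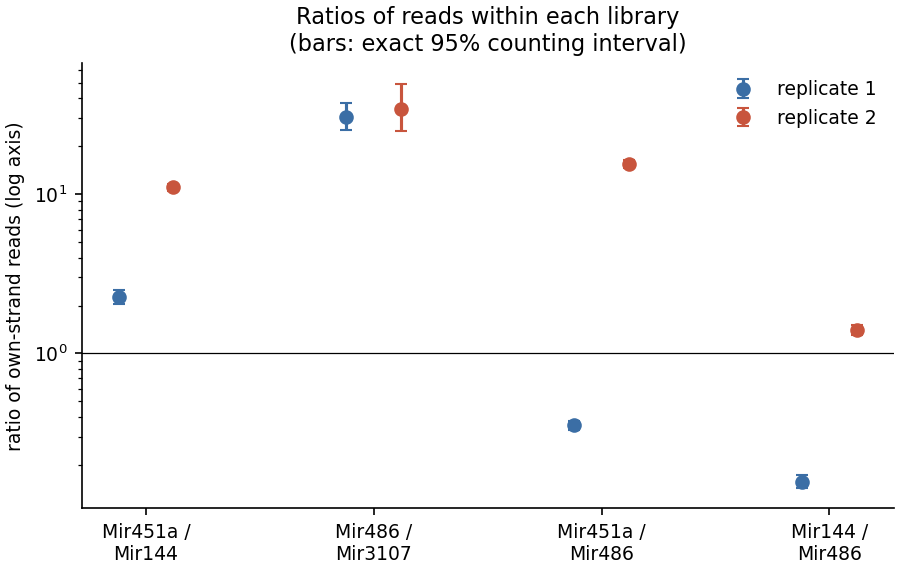
Ratios of own-strand reads within each library (log axis), with exact 95% counting intervals, for 4 pairs of genes. Mir486 to Mir3107 is near 30.5 and 34.5 in the 2 libraries, whereas the other 3 ratios are higher in replicate 2.

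In serum, the ratio of miR-23a to miR-451a is used as a measure of red cell lysis. For the genes counted here, there were 115 reads of Mir23a per read of Mir451a in replicate 1 (109 to 122) and 5.54 in replicate 2 (5.45 to 5.62). Mir23a itself shares 20 bases with Mir23b, and the use in serum does not carry over to a tissue measured by sequencing.

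Marker genes of other heart cells differed less between the libraries than Mir451a and Mir144 did. Those 2 genes ranked 1st and 5th by size of difference among 226 genes, so most other genes differed less too. The 3 cardiomyocyte genes Mir208a, Mir208b and Mir499, which lie in myosin genes, were all detected and had summed levels of 5166 CPM in replicate 1 against 3415 CPM in replicate 2, so the labelled tissue carries its markers. Endothelial Mir126a stood at 42911 and 63991 CPM, and smooth muscle Mir143 and Mir145a summed to 30333 and 33879 CPM. The leukocyte genes Mir142, Mir150, Mir155 and Mir223 summed to 2489 and 3142 CPM. Of these 4, Mir223, Mir150 and Mir142 were higher in replicate 1 (log2 differences 1.83, 0.60 and 0.26) and Mir155 was lower (-0.85). No gene of these lists was at 0 in either library, and their part in the differences of the 2 loci was not tested.

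The reads of Mir486 per read of a cardiomyocyte gene were higher in one library or the other depending on the gene. Per read of Mir499 they went from 0.189 in replicate 1 to 0.165 in replicate 2, a ratio of 0.874 (0.814 to 0.937). Per read of Mir208a they went from 0.485 to 0.641, by 1.32-fold (1.21 to 1.43), and per read of Mir208b from 2.00 to 1.42, a ratio of 0.711 (0.640 to 0.791). Mir451a was higher in replicate 2 against all 3 genes, by 38.3-fold (36.0 to 40.9) against Mir499, 57.9-fold (53.6 to 62.6) against Mir208a and 31.2-fold (28.2 to 34.5) against Mir208b. Mir144 was higher by 7.85-fold (7.10 to 8.70), 11.9-fold (10.6 to 13.3) and 6.40-fold (5.63 to 7.27) against the same genes. Against endothelial Mir126a, Mir451a went from 0.00544 to 0.0999 reads per read and Mir486 from 0.0153 to 0.00641. The pairs with cardiomyocyte genes and Mir126a were chosen with the values of these genes known.

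By likeness of the difference between the 2 libraries, over genes averaging 100 reads or more, Mir451a was nearest to Mir185 (794 and 5275 reads, log2 -3.66), followed by Mir144 and Mir505 (-1.91). Mir144 was nearest to Mir505, Mir199b (-1.83) and Mir99b (-1.60). Mir486 was nearest to Mir383 (0.54), Mir874 (0.59) and Mir26b (0.50), and Mir3107 to Mir219a-2 (0.72), Mir1983 (0.72) and Mir1306 (0.69). Likeness over 2 libraries is a single number per gene and many genes share values near those of Mir486 and Mir3107, whereas Mir185, the nearest to Mir451a, lay 1.25 away from it on the log2 scale. Mir199b and Mir219a-2 share 20 bases with other hairpins.

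Other microRNAs reported from red cells were compared between the libraries as a list. Mir451a had the largest difference of the 226 genes averaging 100 reads or more, so smaller ones in other abundant genes were given beforehand. Of a list of 18, the 16 with at least 10 reads in sum were tested. In replicate 1, 8 were lower, 3 were higher and 5 were not called. Over all 430 genes, 27.4% were lower and 27.9% higher. Calls were more frequent at higher counts, which most genes of the list have. Of 263 genes with at least 100 reads in sum, 102 were lower and 102 higher. The median log2 difference of the 16 was -0.23, against -0.05 over all 430 genes tested. The lowest called were Mir182 at -1.07 (83 and 92 reads) and Mir16-1, a cell cycle regulator of the miR-15/16 family, at -1.01 (2880 and 3059 reads), which shares 20 bases with Mir16-2. The highest called were Mir15b at 0.62 and Mir106b at 0.40. Mir19b-1, with 1 and 5 reads, and Mir96, with 4 and 0, were not tested. Without genes that share 20 bases with another hairpin, 6 of 13 were lower and 2 higher. The summed level of the list was nearly equal in replicates 1 and 2, at 18768 and 18820 CPM. Its highest genes went in opposite directions. Mir93 (5933 and 6613 CPM) and Mir17 (2288 and 3294 CPM) were higher in replicate 2, and Mir15b (4522 and 2672 CPM) in replicate 1. Whether the sum follows red cell content was not tested.

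In a list of 13 microRNAs linked to the control of red cell formation, more genes were higher than lower in replicate 1. All 13 were tested, and 9 were higher in replicate 1, 3 were lower and 1 was not called, with a median log2 difference of 0.49 against -0.05 over all genes tested. Of all 430 genes, 55.3% were called, 27.9% higher and 27.4% lower. Among the 263 genes with at least 100 reads in sum, as all genes of this list have, 102 were higher and 102 lower. None of the 13 or of the 16 red cell genes was among the 3 genes that edgeR's exact test called at the estimated coefficient of variation. The highest were Mir223, a myeloid microRNA, at 1.83 (555 and 82 reads), and Mir27a at 1.27 (7479 and 1633 reads). The lowest were Mir155, known from activated leukocytes, at -0.85 and Mir34a, a target of p53, at -0.54. Of the 13, 5 share 20 bases with another hairpin, Mir27a with Mir27b among them. Without those 5, 4 of 8 were higher and 3 lower. The same leukocyte genes Mir223, Mir150 and Mir155 stand on this list, and most of its genes are expressed outside red cells.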

How the data were processed

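The deposited tables give whole-number read counts per microRNA gene for each library, not normalized, made by the authors against mm10 with GENCODE M21, per the deposited readme. How reads were trimmed, aligned and counted is not given in the sources used here. No header names the 3 count columns. Their values show unstranded, own-strand and opposite-strand reads, and the own-strand column was used. The first 4 lines name no gene and were left out. Reads with several mapping places, assigned to no gene, made up 41.1% of replicate 1 and 39.9% of replicate 2. Of the 12701590 and 7126319 reads, 41.2% and 42.5% were on the own strand of a gene, and 3 reads served as the floor for a count of 0.

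Genes whose reads in both libraries summed to 10 or more were tested by an exact binomial test, doubling the smaller tail, with TMM factors from edgeR 4.0.16 (R 4.3.3) estimated on the same genes. Against total counts, TMM shifted log2 differences by -0.13. A pseudocount of 0.5 reads entered each log2 difference. Intervals of ratios between libraries are exact conditional ones. edgeR's exact test at a fixed coefficient of variation, DESeq2 1.42.0 size factors, other denominators and filters were alternatives. The binomial test was run on data simulated with counting error only. It called 66.5% of genes changed 2-fold and 2.02% of unchanged genes. Without a spread between libraries, that simulation cannot show how the test behaves on these 2 libraries. Copies were sought as stretches shared between GENCODE M21 hairpins, not in the rest of the genome. Of the 4 genes, Mir451a and Mir144 matched the RefSeq sequence table, and structures were predicted with RNAfold. Other work used Python 3.11.15 with scipy 1.17.1.

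The genes and lists were chosen with earlier results of these data known. Named were the 4 genes, microRNA genes within 10 kb, their neighbours in level, the 3 genes nearest in difference for each, the 2 most different called genes in each direction of both lists, and markers of other cells. Replicates are labelled as biological, and with 2 of them an SD rests on a single difference.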

Additional observations from a re-analysis of the deposited data

How the results depend on the processing

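The directions of all 4 genes held under every scaling run (total counts, DESeq2 size factors, TMM over all rows, TMM without the 4 genes) and all 4 kept their calls there. Adding 5 reads to each count, which enters the log2 difference and not the test, left the directions as they were. With edgeR's exact test at a coefficient of variation of 0.4 and at the estimated 0.429, Mir144 (log2 -2.62, adjusted p 0.166 and 0.318), Mir486 (0.55) and Mir3107 (0.72) lost their calls, which left 1 of the 4 genes called in each case. At 0.1, Mir3107 (0.72) lost its call, and 3 were left. Over all genes, these tests called 5, 3 and 123, and the red cell list had 5 called at 0.1. With unstranded reads 1 of the 4 genes could be tested, Mir144, because reads on overlapping genes are ambiguous there, so Mir451a, Mir486, Mir3107 and the ratios gave no value. With all reads of the library as denominator, all 4 levels were lower, with Mir451a at 1406 CPM, Mir144 at 144 CPM, Mir486 at 223 CPM and Mir3107 at 6.97 CPM. Without genes sharing 20 bases, 7 genes of the regulator list were called, as fewer were tested. Leaving out a replicate gave levels of 234 to 6393 CPM for Mir451a, 103 to 579 for Mir144, 410.4 to 658 for Mir486 and 11.9 to 21.6 for Mir3107. It gave ratios of 2.26 to 11.0 (Mir451a to Mir144), 30.5 to 34.5 (Mir486 to Mir3107), 0.355 to 15.6 (Mir451a to Mir486) and 0.157 to 1.41 (Mir144 to Mir486). TMM over all rows, TMM without the 4 genes, the estimated coefficient and the lists without shared stretches were added after seeing the data. No paired analysis was possible because there is 1 group. Depth limits Mir3107 most, with 36 reads in replicate 2.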
